A study of Homo sapiens with 40 samples.

Results

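POU5F1, SOX2 and NANOG encode the core transcription factors of human pluripotent cells. They were taken by gene symbol from both deposited tables, where they are 3 of 57939 genes measured in total RNA and 3 of 58336 measured in polyA RNA. All libraries came from wild-type H1, an established line of human embryonic stem cells. Cells were sampled before differentiation (day 0, in the maintenance medium mTeSR1 on matrigel) and after 3 and 5 days of differentiation towards mesoderm. The differentiation medium was IMDM with serum, glutamine, ascorbic acid and monothioglycerol, with BMP4 on the first day and bFGF added afterwards. Every value therefore describes 1 line. Cells of each day were taken apart with the successive buffers of a protein fractionation kit into 5 extracts: CE from the cytoplasm, ME from membranes, SNE with soluble nuclear material, CBNE with chromatin-bound nuclear material released by micrococcal nuclease, and PE from the remaining pellet. Libraries labelled INPUT were taken as RNA of unfractionated cells. Total RNA was sequenced in 36 libraries (18 groups of 2), and polyA RNA of day 0 cytoplasm and nucleus in 4 libraries (2 groups of 2).

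POU5F1 (also called OCT4) is a POU-domain factor, SOX2 an HMG-box factor and NANOG a homeobox factor. POU5F1 and SOX2 proteins bind DNA side by side at joint elements next to many genes of pluripotent cells, among them NANOG and their own genes, and the circuit is known to keep embryonic stem cells undifferentiated. Their mRNAs are translated in the cytosol, and BMP signalling moves human embryonic stem cells out of pluripotency.

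The binding of POU5F1 and SOX2 at NANOG is the textbook link between the 3 genes, so the stretch that holds it is shown. RefSeq promoters (build GRCh38.p14) were found for 2 of the 3 members, SOX2 and NANOG. The 250 bases before the NANOG start are at chr12:7789152-7789401, plus strand, and the capitals mark a joint SOX and POU element at chr12:7789282-7789295, 106 bases before the start.

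NANOG promoter: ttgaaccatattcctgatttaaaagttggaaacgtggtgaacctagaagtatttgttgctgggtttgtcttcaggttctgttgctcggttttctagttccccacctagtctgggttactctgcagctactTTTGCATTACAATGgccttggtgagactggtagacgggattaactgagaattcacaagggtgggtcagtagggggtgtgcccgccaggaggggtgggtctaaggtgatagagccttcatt

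The motif searched, on both strands, was a SOX site (CATTGT), then 1 base of any kind, then a POU site (ATGCAAA), and 2 of 35116 promoters (0.0057%) held it within 250 bases before the start. The POU site, which overlaps the joint motif, was found alone or within it in 3.94% of the promoters, and occurred in those of both NANOG and SOX2. These matches describe letters only, and no binding was measured.

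Copies of the members bear on how reads are assigned, because POU5F1 and NANOG have intronless copies elsewhere in the genome that nearly repeat their mRNAs. POU5F1 lies at chr6:31164337-31180731 on the minus strand (GENCODE 29, GRCh38) and spans 16395 bases with 2896 exonic bases over its 9 annotated transcripts. Its copies considered here are POU5F1P3 and POU5F1P4. NANOG lies at chr12:7787794-7799141 on the plus strand and spans 11348 bases with 5393 exonic bases, and its copy NANOGP8 lies at chr15:35084193-35085110 on the minus strand. Aligned bases were identical to the parent mRNA for 98.1% of 1078 in POU5F1P3, 97.2% of 1084 in POU5F1P4 and 99.5% of 918 in NANOGP8. The lines below show how close a copy can be, and give from GENCODE 29 the stretch of 90 coding bases within 1 exon where NANOGP8 differs most from NANOG, with the differing position in capitals in both lines. In NANOG-201 these are coding bases 1 to 90 (chr12:7789615-7789704, plus strand).

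NANOG: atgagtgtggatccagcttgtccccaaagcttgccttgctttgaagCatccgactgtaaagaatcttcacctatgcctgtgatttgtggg
NANOGP8: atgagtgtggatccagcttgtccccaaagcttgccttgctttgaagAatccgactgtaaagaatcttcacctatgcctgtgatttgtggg

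Even there, NANOGP8 differed from NANOG at 1 of 90 bases. Of all windows of 31 bases in each copy, 55.5% in POU5F1P3, 43.1% in POU5F1P4 and 82.6% in NANOGP8 also occurred in the parent mRNA. Reads from such stretches cannot be told apart by sequence, so values of POU5F1 and NANOG carry this uncertainty throughout.

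Values are TPM, in which reads are scaled to gene length and to a fixed library total. In the total RNA table, TPM times the gene span (start to end, introns included) came out as whole reads, within 0.05, for 98.6% to 98.9% of values of up to 50 reads, against 14.5% to 27.9% with exonic length. In the polyA table the exonic length gave whole reads for 97.4% to 97.7%, against 40.3% to 44.7% with the span. Total RNA TPM was thus treated as scaled by span, and the 2 tables are not compared in level. Read numbers rebuilt this way came to 8604858 to 28535282 per library in INPUT, CE, ME and SNE, 474003 to 7862397 in PE, 380093 to 1835677 in CBNE and 14449201 to 17270348 in polyA RNA. Levels of different genes are compared below as reads per exonic kb per 1000000 reads. The ratio of POU5F1 to NANOG, given further below in TPM, is compared only between libraries. Reads counted over the span may include intronic ones, which were not separated, so this scale does not give a level of mature mRNA. Of 7 RNAs chosen to check the extracts, the cytosolic mRNAs GAPDH and ACTB were higher in day 0 CE than in SNE. The nuclear RNAs MALAT1, NEAT1 and KCNQ1OT1 and the mitochondrial MT-ND1 and MT-CYB were lower there. The separation was partial. Mean day 0 MALAT1 was 2181 TPM in CE, 9577 TPM in SNE and 2786 TPM in INPUT. Per 1000000 reads it was 1179 in CE and 2186 in SNE. SNE also held MT-CYB, at 11929 TPM against 909.9 TPM in CE. Differences between CE and SNE are thus not a clean split between cytoplasm and nucleus.

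SOX2 was listed at 0 TPM in all 40 libraries of both tables, on every day and in every extract, so neither its level nor its split can be given. The gene is a single exon at chr3:181711924-181714436 on the plus strand, and it lies wholly inside the span of SOX2-OT (chr3:180989762-181836880), a long noncoding gene of the same strand. Of 140 protein-coding genes that lie wholly within another gene of the same strand without sharing exonic bases, 139 (99.3%) were at 0 in every total RNA library and 140 in every polyA library. Of 9471 protein-coding genes whose exons lie outside every other gene, 7.89% were at 0 in every total RNA library and 14.4% in every polyA library. A listed 0 for SOX2 is therefore not reported as absence of its mRNA, and no test was made for it.

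**Figure D1:**
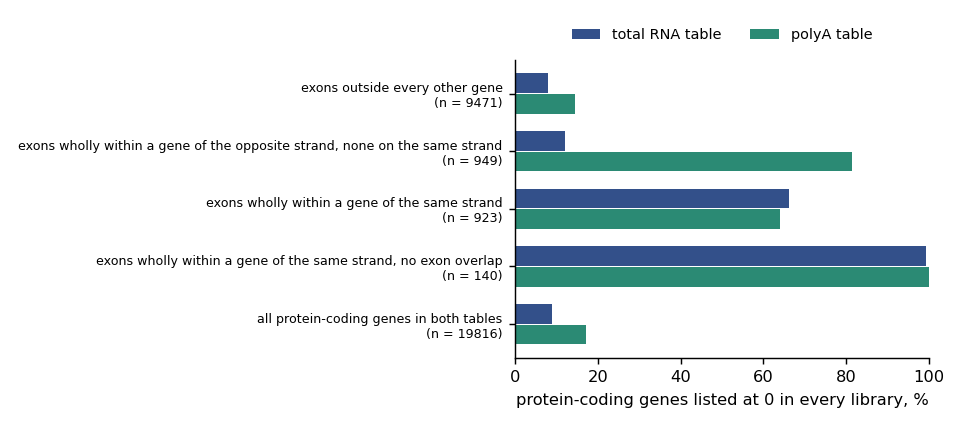
Percentage of protein-coding genes listed at 0 TPM in every library (x axis) by how their exons lie relative to other genes in GENCODE 29 (y axis, with the number of genes), for the total RNA table (blue) and the polyA table (green). SOX2 belongs to the class of 140 genes wholly within a same-strand gene without exon overlap, where 99.3% and 100% were at 0.

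The host gene SOX2-OT, measured over its own span, had 599 and 620 reads in day 0 INPUT, 657 and 834 on day 3, and 143 and 155 on day 5. Its highest values lay in SNE, between 1.12 and 1.94 TPM over the 6 libraries, against 0.0455 to 0.358 TPM in CE, and the 2 sets of libraries did not overlap. For scale, 30% of the 24735 genes tested were lower in CE than in SNE on day 0 (limma, by the rule given below). The median gene was lower by 0.53 on the log2(TPM + 1) scale. How many of these reads come from SOX2 itself was not tested. Among other SOX genes, SOX3 reached 403 TPM and SOX4 1233 TPM in at least 1 total RNA library, so 0 was not the rule for the family.

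NANOG fell in INPUT, the RNA of unfractionated cells. It stood at 221.6 and 226.5 TPM on day 0, at 131.6 and 129.2 TPM on day 3, and at 54.8 and 47.7 TPM on day 5. The libraries of the 3 days did not overlap. NANOG fell by 2.11 ± 0.32 on the log2(TPM + 1) scale (± is the standard error; n = 2 libraries against 2) from day 0 to day 5 (limma, adjusted p = 3.4e-05), where 12.8% of the 24735 genes tested were called in either direction. A call needs an adjusted p under 0.05 and a log2 fold change of at least 1. From day 3 to day 5 it fell by 1.33 ± 0.32 (limma, adjusted p = 0.0076; 4.81% of genes called), and from day 0 to day 3 the difference of -0.78 ± 0.32 was not called (limma, adjusted p = 0.13; 7.44% of genes called). The day 3 to day 5 call is lost when either day 3 library or the second day 5 library is left out (adjusted p = 0.051 to 0.073 in limma).

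POU5F1 also fell in INPUT. It stood at 79.1 and 82.7 TPM on day 0, at 62.7 and 56.8 TPM on day 3, and at 37.6 and 34.7 TPM on day 5, again without overlap between days. It fell by 1.14 ± 0.32 from day 0 to day 5 (limma, adjusted p = 0.010), and this call is lost without the second day 0 library or the second day 5 library (adjusted p = 0.063 and 0.069), and with a pseudocount of 0.1 in place of 1 (adjusted p = 0.33 in limma). The differences from day 0 to day 3 (-0.43 ± 0.32) and from day 3 to day 5 (-0.71 ± 0.32) were not called (limma, adjusted p = 0.49 and 0.20). The labels do not say that replicates came from separate cultures, so p-values measure only spread between libraries, which may be technical. In limma that spread is pooled for each gene over all 18 groups of total RNA, CBNE and PE included, not over the compared libraries alone. An absent call therefore does not show that a level held still. In limma voom on rebuilt reads, NANOG differed by -0.93 from day 0 to day 3 in INPUT (adjusted p = 4.5e-11), under the fold threshold. In bulk RNA, fewer cells holding an mRNA and less mRNA per cell cannot be told apart.

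Per exonic length, with any intronic reads included, the 2 genes were close on day 0. NANOG stood at 28.9 and 28.6 reads per exonic kb per 1000000 reads, and POU5F1 at 27.8 and 28.1. On day 5 NANOG was at 7.24 and 6.03 and POU5F1 at 13.4 and 11.8 on the same scale. POU5F1 was the higher of the 2 in both day 5 libraries, whereas in TPM as deposited NANOG was higher on every day. Among 19786 protein-coding genes ranked by mean reads per exonic kb in INPUT, NANOG went from rank 1292 on day 0 to rank 6396 on day 5, and POU5F1 from rank 1339 to rank 3759.

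**Figure D2:**
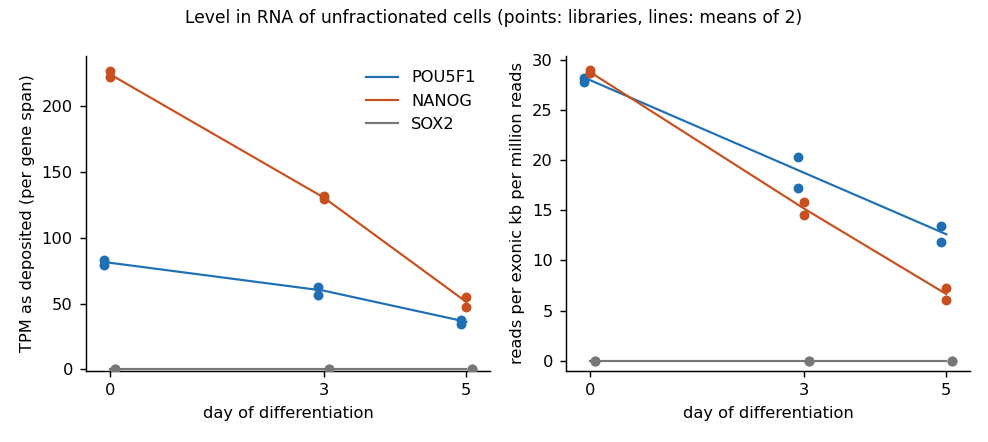
Level in INPUT (y axes; left, TPM as deposited; right, reads per exonic kb per 1000000 reads) against day (x axes) for POU5F1, NANOG and SOX2, with 1 point per library and lines through the means of 2. NANOG ends at 54.8 and 47.7 TPM from 221.6 and 226.5, POU5F1 at 37.6 and 34.7 from 79.1 and 82.7, and SOX2 is listed at 0 throughout.

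Other genes of the pluripotency network are given for scale, from a list of 28 that does not hold the members. In INPUT, 15 of the 28 fell and 1 rose from day 0 to day 5, with a median log2 fold change of -1.26, against 6.67% of all genes lower, 6.15% higher and a median of -0.08 over all genes tested. The lowest were UTF1 (-4.93), a chromatin-associated factor, PRDM14 (-4.54), a transcriptional regulator of pluripotent cells, and USP44 (-3.94), a deubiquitinase. NODAL, a TGF-beta family ligand that also acts in the primitive streak, rose (1.69). NANOG (-2.11) and POU5F1 (-1.14) lie on either side of the list's median, with 11 listed genes below NANOG and 15 below POU5F1.

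Among markers of differentiated cells in INPUT, 6 of 8 mesoderm genes, 3 of 4 tested endoderm genes (of 5) and 7 of 7 amnion and trophoblast genes rose from day 0 to day 5 (limma). In the same comparison, 6.15% of all genes tested were called higher and 6.67% lower on day 5. KDR, a receptor on the mesoderm list, fell (-1.65). Of 4 tested neuroectoderm genes (of 6), 0 were called in limma and 0 had an unadjusted p under 0.05. In limma voom 0 were called and 1 had an unadjusted p under 0.05. Summed INPUT TPM of the mesoderm list was 108 and 111 on day 0, 116 and 104 on day 3, and 1442 and 1353 on day 5. That of the endoderm list was 8.83 and 11.1, then 49.5 and 51.4, then 990 and 961, and that of the amnion and trophoblast list 11.4 and 10.9, then 116 and 123, then 746 and 748. The neuroectoderm list summed to 105 and 109 on day 0, 254 and 252 on day 3, and 114 and 98.2 on day 5. All mesoderm, endoderm and amnion genes were above 0 in both day 5 INPUT libraries. The part of these cells in the fall of POU5F1 and NANOG was not tested.

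POU5F1 RNA was concentrated in CE. On day 0 it stood at 132.4 and 126.9 TPM in CE, at 11.2 and 13.9 TPM in ME and at 13.9 and 11.6 TPM in SNE. On day 3 the values were 122.7 and 113.7 TPM in CE, 32.1 and 25.0 TPM in ME and 14.0 and 16.0 TPM in SNE. On day 5 they were 75.9 and 72.5 TPM in CE, 14.3 and 10.5 TPM in ME and 4.26 and 4.65 TPM in SNE. On each day both CE libraries were above every ME and SNE library and above INPUT. ME and SNE libraries overlapped on day 0, and ME was the higher of these 2 extracts on days 3 and 5.

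NANOG RNA was also highest in CE, but less so. On day 0 it stood at 298.9 and 317.7 TPM in CE, at 99.6 and 104.0 TPM in ME and at 96.9 and 101.4 TPM in SNE. On day 3 the values were 184.4 and 187.6 TPM in CE, 105.8 and 86.0 TPM in ME and 76.7 and 80.7 TPM in SNE. On day 5 they were 71.2 and 73.9 TPM in CE, 42.0 and 35.2 TPM in ME and 27.0 and 26.7 TPM in SNE. No CE library overlapped with ME or SNE of its day, and ME and SNE overlapped on day 0 only.

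**Figure D3:**
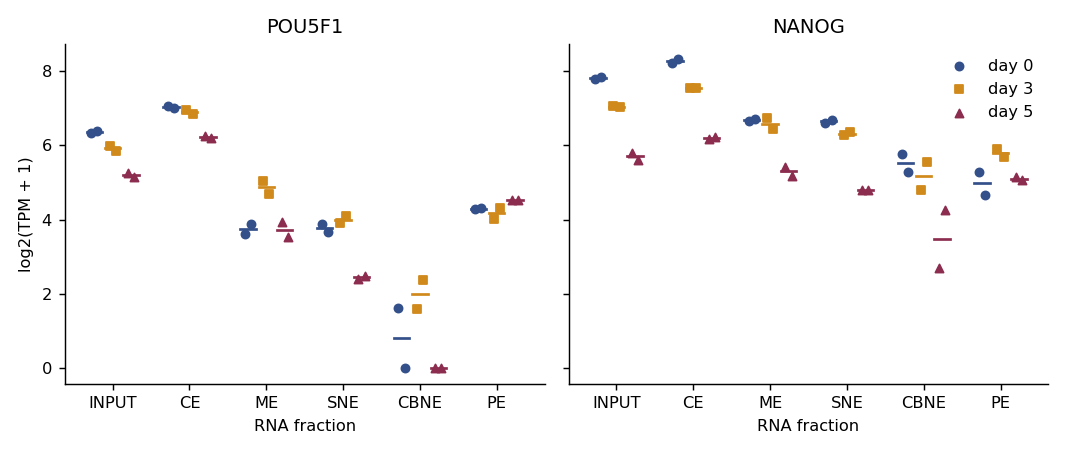
log2(TPM + 1) of POU5F1 (left) and NANOG (right) by RNA fraction (x axis) and day (colour and marker), with 1 point per library and bars at the means of 2. CE holds the highest values of both genes on each day, and the CBNE values of POU5F1 rest on 0 to 5 reads a library.

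POU5F1 was higher in CE than in SNE on days 0, 3 and 5 by log2 fold changes of 3.25, 2.90 and 3.79, each ± 0.32 (limma, adjusted p = 2.3e-08, 1.1e-07 and 1.4e-09). NANOG was higher in CE than in SNE by 1.63, 1.23 and 1.40, each ± 0.32 (limma, adjusted p = 2.1e-04, 0.0030 and 8.3e-04). All 6 differences were called, and that of NANOG on day 3 loses its call with totals recomputed without mitochondrial and structured noncoding RNA (0.78). Of all genes tested, 38.7%, 37.2% and 44.1% were called between CE and SNE on days 0, 3 and 5 in either direction, and 8.66%, 6.64% and 8.17% were higher in CE. The median gene was lower in CE by 0.53 on day 0. The size depends on the scale: on rebuilt reads scaled to library totals, in limma voom, POU5F1 differed by 4.57, 4.17 and 5.65 and NANOG by 2.88, 2.45 and 3.05. There 28.5%, 24.9% and 31.3% of all genes were called higher in CE on days 0, 3 and 5, and the day 0 median gene was higher in CE by 0.36. With a common median 20.5%, 26.2% and 32.8% were higher, so how rare an excess in CE is depends on the scale.

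POU5F1 was higher in CE than in ME by 3.28, 2.02 and 2.50 on days 0, 3 and 5, each ± 0.32 (limma, adjusted p = 7.3e-08, 8.8e-05 and 7.7e-06), where 16.6%, 7.82% and 8.09% of all genes were called. NANOG was higher in CE than in ME by 1.59 ± 0.32 on day 0 (limma, adjusted p = 6.3e-04), and its differences of 0.96 and 0.90 on days 3 and 5 were not called (limma, adjusted p = 0.046 and 0.057), both under the fold threshold. Mitochondrial RNA was higher in ME: MT-CYB stood at 46929 ± 2101 TPM (SD, n = 2) in day 0 ME and 909.9 ± 5.12 TPM in CE. With totals recomputed without mitochondrial and structured noncoding RNA, NANOG differed between CE and ME by 0.27, -0.057 and 0.0011 on days 0, 3 and 5, and POU5F1 by 2.02, 1.03 and 1.64. The excess of NANOG in CE over ME thus depends on the scaling, and that of POU5F1 kept its direction. Library numbers in the labels jump between the first and the second day 5 ME library, and day 5 SNE, CBNE and PE libraries follow the jump, so on day 5 this numbering and these 3 extracts cannot be told apart. With the first ME library alone, the day 5 difference between CE and ME was 2.29 for POU5F1 and 0.77 for NANOG.

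Other pluripotency genes were divided in both directions on day 0. Of the 28 genes on the list, 7 were higher in CE than in SNE and 5 were lower, with a median of 0.08 against -0.53 over all genes, of which 30% were lower in CE. This count depends on the scale: voom called 17 of the 28 higher and 1 lower (16.4% of all genes lower, 28.5% higher), a common median 12 higher and 0 lower (11.4% of all genes lower, 20.5% higher). The highest were UTF1 (4.33), FOXH1 (2.75), a cofactor of NODAL signalling, and GDF3 (2.61), a secreted TGF-beta family ligand. The lowest were TERF1 (-1.74), a telomere-binding protein, JARID2 (-1.73), a cofactor of a Polycomb repressive complex, and FGF2 (-1.62), a growth factor. POU5F1, at 3.25, exceeded 27 of the 28 listed genes in this difference. Against ME on day 0, 10 of the 28 were higher in CE, with LIN28A (2.16), FOXH1 (2.15) and ZFP42 (2.13) the highest, against 15.2% of all genes. With totals recomputed without mitochondrial and structured RNA, 0 of the 28 were higher and 7 lower (2.11% of all genes higher, 24.1% lower), and quantile normalisation gave 2 higher and 6 lower (6.24% of all genes higher).

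The chromatin-bound and pellet extracts were shallow, and few reads stood behind each member there. POU5F1 had 1 and 0 reads in CBNE on day 0, 2 and 5 on day 3, and 0 and 0 on day 5. NANOG had 18 and 11 reads on day 0, 18 and 38 on day 3, and 1 and 4 on day 5. Set against CE on pooled reads scaled to library totals, NANOG was 8.73-fold higher in CE than in CBNE on day 0 (95% exact interval 6.08 to 13.0), 10.2-fold on day 3 (7.82 to 13.5) and 10.8-fold on day 5 (4.64 to 33.4). For POU5F1 the ratio was 153 on day 0 (27.5 to 6051) and 74.2 on day 3 (35.98 to 185), and on day 5 CE was at least 26.6-fold higher, taking 3 reads over the group as the limit that 0 reads allow (the two-sided exact lower limit is 21.6). Intervals and limits cover counting error only. On day 0 the nuclear RNAs MALAT1, NEAT1 and KCNQ1OT1 were also lower in CBNE than in CE. Their mean TPM was 1319 against 2181, 27.8 against 33.1 and 8.98 against 13.2. On days 3 and 5 NEAT1 and KCNQ1OT1 were higher in CBNE and MALAT1 was lower. The folds of CE over CBNE are thus not read as a split between cytoplasm and chromatin. In limma on log2(TPM + 1), both genes were called higher in CE than in CBNE on all 3 days, where 42.7%, 44.2% and 44.2% of all genes were called.

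In PE, POU5F1 had 12 and 10 reads on day 0, 38 and 43 on day 3, and 68 and 107 on day 5, which correspond to 18.6 and 18.8, 15.3 and 19.0, and 22.3 and 21.99 TPM. NANOG had 17 and 9, 102 and 79, and 73 and 109 reads, or 38.1 and 24.4, 59.4 and 50.5, and 34.5 and 32.4 TPM. In TPM, POU5F1 had its 2 highest PE libraries on day 5 and NANOG on day 3, but per 1000000 reads POU5F1 was highest on day 0 (17.1 and 21.1, against 16.9 and 13.6 on day 5). POU5F1 was higher in CE than in PE by 2.73, 2.72 and 1.70 and NANOG by 3.29, 1.75 and 1.10 on days 0, 3 and 5, each ± 0.32 and each called (limma, adjusted p at most 0.0087; 34.9%, 33.7% and 27.6% of all genes called). On day 5 the call of POU5F1 ends with a pseudocount of 0.1 (limma, adjusted p = 0.072) and that of NANOG with totals recomputed without mitochondrial and structured RNA (0.65; limma, adjusted p = 0.10).

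Shares of the summed TPM of the 5 extracts put the split on 1 scale, if each extract is given the same weight. CE held 74.2% ± 0.13 of POU5F1 (SD, n = 2) on day 0, 64.9% ± 1.42 on day 3 and 65.6% ± 0.79 on day 5. It held 52.6% ± 2.35 of NANOG on day 0, 41.1% ± 0.63 on day 3 and 39.6% ± 0.10 on day 5. The true weights are not known. With weights that bring the sum of the extracts closest to INPUT, CE held 94.7%, 83.0% and 85.9% of POU5F1 and 84.4%, 67.2% and 68.4% of NANOG. The fitted weight of CBNE was 0 on each day. Taken as shares of their total, these weights gave 47.4 and 42.7 TPM of POU5F1 on day 5, against 37.6 and 34.7 TPM in INPUT. For NANOG they gave 56.5 and 53.9 TPM, against 54.8 and 47.7 TPM. Under both sets of weights the CE share was higher for POU5F1 than for NANOG on each day, and lower on days 3 and 5 than on day 0 for both genes.

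Within extracts, NANOG fell from day 0 to day 5 in CE (-2.07 ± 0.32), ME (-1.38 ± 0.32) and SNE (-1.85 ± 0.32), each called (limma, adjusted p = 3.7e-05, 0.0020 and 1.0e-04), where 14.4%, 17.2% and 19.8% of all genes were called. From day 0 to day 3 its differences of -0.73 in CE, -0.09 in ME and -0.33 in SNE were not called (limma, adjusted p = 0.11, 0.95 and 0.52).

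For POU5F1 the extracts gave different calls over the days. From day 0 to day 5 it fell in SNE by 1.33 ± 0.32 (limma, adjusted p = 0.0022), while the differences of -0.80 in CE and -0.02 in ME were not called (limma, adjusted p = 0.069 and 1.0). From day 0 to day 3 it rose in ME, from 11.2 and 13.9 to 32.1 and 25.0 TPM, by 1.12 ± 0.32 (limma, adjusted p = 0.0097), and its differences of -0.13 in CE and 0.22 in SNE were not called (limma, adjusted p = 0.90 and 0.70). Between days 0 and 3, 11.8% of all genes were called in CE, 15.1% in ME and 15.9% in SNE. Extract markers moved in ME over the same days: GAPDH went from 962.8 and 1031 to 2437 and 1905 TPM and ACTB from 174.9 and 183.1 to 708.3 and 591.9 TPM, both called higher, while mean INPUT GAPDH was 5329 TPM on day 0 and 5289 TPM on day 3. The part of this shift in the POU5F1 value was not tested. The rise in ME falls below the threshold without the first day 0 ME library (0.98) or the first day 3 ME library (0.94). With a pseudocount of 0.1, neither the rise in ME nor the fall in SNE was called (limma, adjusted p = 0.29 and 0.16).

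The change of the split itself was tested as the difference between days in CE minus ME or CE minus SNE. None of the 8 differences of POU5F1 and NANOG was called in limma, 1 had an unadjusted p under 0.05, and limma voom on rebuilt reads called 2. The largest was that of POU5F1 between CE and ME from day 0 to day 3, at -1.25 ± 0.45 (limma, adjusted p = 0.13; 3.63% of all genes called). It was called when only INPUT, CE, ME and SNE libraries were fitted (adjusted p = 3.1e-04) and on rebuilt reads in limma voom (-1.18, adjusted p = 3.1e-05). For the change from day 0 to day 3 between CE and SNE 3.76% of all genes were called, and for those from day 0 to day 5 between CE and SNE and between CE and ME 7.16% and 3.44%.

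The ratio of POU5F1 to NANOG compares both genes within a library, and the library total enters it only through the 1 added to each value, which draws ratios of low values towards 0. As log2((POU5F1 TPM + 1)/(NANOG TPM + 1)) it was -1.17 and -1.32 in CE on day 0, -0.58 and -0.72 on day 3, and 0.09 and -0.03 on day 5. In ME it was -3.04 and -2.82, then -1.69 and -1.74, then -1.49 and -1.65. In SNE it was -2.72 and -3.02, then -2.37 and -2.26, then -2.41 and -2.29. CE libraries did not overlap with ME or SNE on any day.

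The ratio was higher in CE than in SNE by 1.89 (exact permutation of the extract labels inside each day, two-sided, p = 0.0093, adjusted p = 0.012, higher on 3 of 3 days) and higher in CE than in ME by 1.45 (same exact test, p = 0.0093, adjusted p = 0.012, 3 of 3 days). SNE was lower than ME by a difference of -0.44 (exact permutation p = 0.046, adjusted p = 0.046, lower on 2 of 3 days). Across INPUT, CE, ME and SNE the ratio was higher on day 3 than on day 0 by 0.67 and on day 5 than on day 0 by 1.03 (exact permutation of day labels within fractions, p = 0.0015, adjusted p = 0.0039, higher in 4 of 4 fractions each). The p-values were adjusted over these 5 tests. Extracts of a day were drawn in succession from the cells of that day, so the fractions are not independent replicates. The day tests treat them as separate strata, and their p-values may overstate the replication. 0.0093 is the smallest p that the 216 permutations of the first 3 tests can give, and 0.0015 that of the 1296 permutations of the others.

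**Figure D4:**
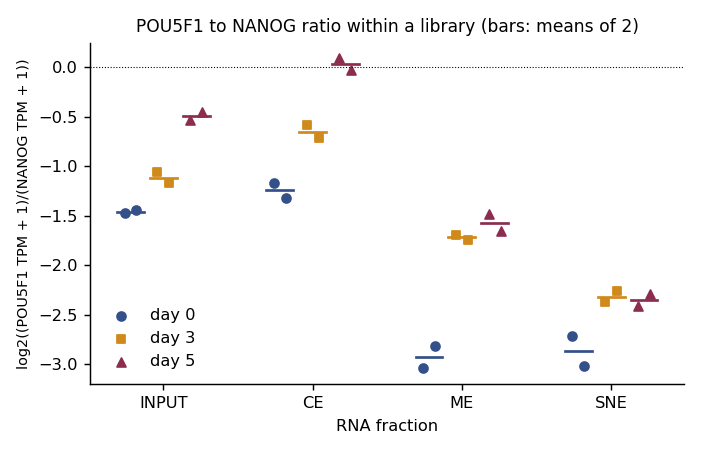
log2((POU5F1 TPM + 1)/(NANOG TPM + 1)) within each library (y axis) by RNA fraction (x axis) and day (colour and marker), with bars at the means of 2. CE lies above ME and SNE on each day, and the ratio is higher on days 3 and 5 than on day 0 in each of the 4 fractions. TPM is scaled by span, so a ratio of 0 does not mark equal levels of the 2 genes.

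Reads listed on copies were a sizeable part of the reads on POU5F1 and its copies, and a smaller part for NANOG. Whether they stem from the copies or from the parent genes was not tested. POU5F1P3 and POU5F1P4 together held 38.2% to 41.3% of the reads of POU5F1 and these copies in the 6 INPUT libraries, 35.8% to 38.2% in CE, 33.6% to 47.7% in ME and 16.2% to 34.5% in SNE. SNE libraries were all below CE libraries. NANOGP8 held 7.18% to 11.1% of the reads of NANOG and itself in INPUT, 8.27% to 10.3% in CE and 5.52% to 9.08% in SNE. In TPM scaled by span the short copies appear large, with POU5F1P3 at 381 and 368 TPM in day 0 INPUT on 492 and 519 reads, where POU5F1 had 1553 and 1773 reads. With the reads of the copies added, limma voom gave a difference between CE and SNE of 4.96, 4.29 and 5.74 for POU5F1 and of 2.92, 2.46 and 3.10 for NANOG on days 0, 3 and 5, and from day 0 to day 5 in INPUT of -1.19 and -2.12.

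In polyA RNA of day 0, POU5F1 stood at 166.2 and 148.5 TPM in the cytoplasm and at 38.3 and 35.4 TPM in the nucleus. NANOG stood at 104.3 and 105.9 TPM in the cytoplasm and at 68.3 and 71.5 TPM in the nucleus. Neither gene's libraries overlapped between compartments. POU5F1 was lower in the nucleus by a log2 fold change of -2.06 ± 0.07 (limma, n = 2 against 2, adjusted p = 8.1e-06) and was called, where 36.3% of 16667 genes were called, 6.22% as lower and 30% as higher in the nucleus. NANOG differed by -0.58 ± 0.05 (limma, adjusted p = 1.4e-04), under the fold threshold. The median gene was higher in the nucleus by 0.50, and with medians made equal NANOG differed by -1.14 and passed the threshold.

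Some features of the polyA table touch these values. POU5F1P3 and POU5F1P4 were at 0 in all 4 polyA libraries, and NANOGP8 held 12.6% to 16.1% of the reads of NANOG and itself. Both POU5F1 copies lie wholly within genes of the opposite strand, and 81.5% of the 949 protein-coding genes in that position were at 0 in every polyA library, against 12.01% in total RNA. Of the exonic bases of POU5F1, 78.7% lie within the spans of opposite-strand genes. TCF19, which overlaps POU5F1 on that strand, had 7 to 27 reads per polyA library. The part of this overlap in the polyA value of POU5F1 was not tested. Of the 28 pluripotency genes, 27 were tested, 5 were higher in the nucleus and 2 were lower (LIN28A at -1.12 and DPPA2 at -1.02). Over all genes tested, 30% were higher and 6.22% lower. POU5F1 had a lower fold change than each of the 27. With medians made equal, 0 of the 27 were higher and 4 were lower, where 14.4% of all genes were higher and 16.9% lower.

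**Figure D5:**
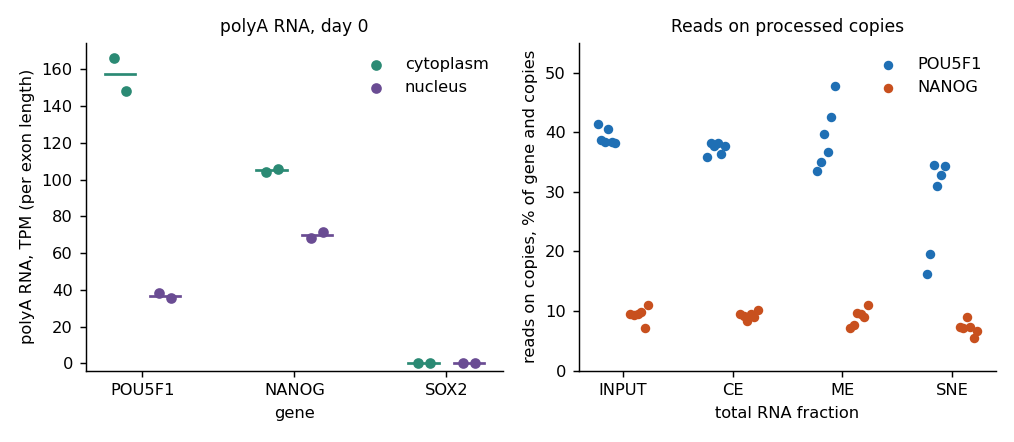
Left, polyA TPM of POU5F1, NANOG and SOX2 (x axis) in cytoplasm and nucleus on day 0, 1 point per library with bars at the means of 2; right, percentage of reads on processed copies among reads of the gene and its copies, 1 point per total RNA library, by fraction (x axis). POU5F1 falls from 166.2 and 148.5 TPM in cytoplasm to 38.3 and 35.4 in nucleus, and its share of reads listed on copies (16.2% to 47.7%) is higher than that of NANOG in each fraction shown.

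The genes whose pattern was most like that of each member were taken by Pearson's r of mean log2(TPM + 1) over 12 group means (INPUT, CE, ME and SNE on 3 days) among 12059 genes with a mean of at least 5 TPM in INPUT. For POU5F1 these were UBE2S (r = 0.99), GPX3 (0.99) and C1QBP (0.99). For NANOG they were FOXD3-AS1 (0.99), CYP2S1 (0.98) and its copy NANOGP8 (0.98). POU5F1 and NANOG had an r of 0.78 with each other, which ranked NANOG 1672 among the genes most like POU5F1 and POU5F1 343 among those most like NANOG. These values describe 12 points that share libraries and carry no test.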

How the data were processed

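Both deposited tables hold TPM as the authors computed it. No header names the unit, so it was inferred from the values, with columns of total RNA summing to 989513 to 998559 and of polyA RNA to 1000000. The submitters' processing notes name the build hg38 and the tools Salmon 1.3.0, featureCounts 1.6.2, HISAT2 2.0.5 and GATK, without saying which made which table. GENCODE 29 held all 57939 gene identifiers of total RNA and 58216 of 58336 of polyA RNA. Read numbers were rebuilt from TPM and gene length, a step chosen after the values were seen, and no count model was the main test. TPM gives a gene's share of a library, not its amount per cell.

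Libraries were grouped by their titles. Genes that reached 1 TPM in 2 or more libraries (24735 in total RNA, 16667 in polyA RNA) were fitted on log2(TPM + 1) in limma 3.58.1 (R 4.3.3), with a mean per group, a trended robust prior and residual degrees of freedom of 18 (total RNA) and 2 (polyA RNA). Adjusted p-values are Benjamini-Hochberg over all genes tested. Fold changes on this scale understate changes of low genes. Ratios of the members were tested by exact permutation (Python 3.11.15), and intervals are 95%. The fit was tested on simulated data. Alternatives were other pseudocounts (0.1 and 5), filters (none, and 5 TPM), scalings, a replicate block, summed copies, fewer groups and left-out libraries. limma voom on rebuilt reads, and list counts under these alternatives, were added after the values were seen. The members and gene lists were chosen with earlier results of these data known. List genes named are those with the largest fold change in each direction among the called, up to 3 each. The host and copies of the members were named for their sequence or position. Sequences of the POU5F1 copies are not reported here.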

Additional observations from a re-analysis of the deposited data

How the results depend on the processing

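No pairing of libraries by replicate number was detected: differences between replicates 1 and 2 correlated across genes at -0.03 to 0.04 between groups. This does not show that extracts with the same number came from different cells. With the replicate block no call changed for POU5F1 or NANOG (INPUT day 5 against day 0, -1.14 and -2.11). Depth limits CBNE and PE, and SOX2 could not be tested under any setting. For values that changed direction or call, the cause was not tested unless stated.

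With pseudocount 0.1, POU5F1 lost its call (limma) in INPUT day 5 against day 0 (-1.16), CE against ME on day 3 (2.06), CE against PE on day 5 (1.74), ME day 3 against day 0 (1.17) and SNE day 5 against day 0 (-1.495). With pseudocount 5 the last 2 fell under the fold threshold (0.93 and -0.91), and the POU5F1 change of CE against ME from day 0 to day 3 was called (-1.06). That change was also called with INPUT, CE, ME and SNE only (-1.25), with its own groups only (-1.25), in voom (-1.18) and in voom with copies (-1.26).

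Quantile normalisation gave NANOG CE against ME on day 0 at 0.13 and turned its changes of split (CE against SNE by day 5, 0.70; CE against ME by day 3, 0.0045, and by day 5, 0.15). A common median called NANOG CE against ME on day 5 (1.02) and NANOG in polyA (-1.14), and turned POU5F1 in CE by day 3 (0.49), NANOG in ME by day 3 (0.31), POU5F1 in ME by day 5 (0.16), NANOG in SNE by day 3 (0.061) and the NANOG change of CE against SNE by day 5 (0.20). Totals without mitochondrial and structured RNA ended the calls of NANOG CE against SNE on day 3 (0.78), against ME on day 0 (0.27) and against PE on day 5 (0.65) and of POU5F1 in ME by day 3 (0.86), and turned NANOG CE against ME on day 3 (-0.057).

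Adding the TPM of copies took in every gene with the symbol POU5F1P or NANOGP and a number, and POU5F1B, beyond the copies named above. It ended POU5F1 calls in INPUT day 5 against day 0 (-1.25 ± 1.26), CE against ME on days 3 and 5 (2.04 and 2.15), CE against PE (2.48, 2.77 and 1.76), ME by day 3 (1.39) and SNE by day 5 (-0.43). It turned NANOG in ME by day 3 (0.12), POU5F1 in ME by day 5 (0.57) and the POU5F1 change of CE against SNE by day 5 (-0.37). Voom turned POU5F1 in CE by day 3 (0.24), NANOG in ME by day 3 (0.15), POU5F1 in ME by day 5 (0.016), NANOG in SNE by day 3 (0.081) and the NANOG change of CE against SNE by day 5 (0.17), and called that of POU5F1 (1.08). Voom with copies, which added only the reads of POU5F1P3, POU5F1P4 and NANOGP8, gave the same turns (0.26, 0.18, 0.27, 0.096 and 0.19). There the POU5F1 call in INPUT day 5 against day 0 stayed (-1.19). With its own groups only, NANOG CE against CBNE on day 5 lost its call (2.72 ± 0.70, against ± 0.32 in the main fit). The CBNE libraries of that day held 1 and 4 NANOG reads, and the part of their spread was not tested.

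Leaving out 1 library at a time gave -1.20 to -1.09 for POU5F1 in INPUT by day 5, -1.43 to -1.24 for NANOG in INPUT from day 3 to day 5, 0.94 to 1.29 and -0.23 to 0.19 for POU5F1 in ME by days 3 and 5, and -0.24 to 0.056 for NANOG in ME by day 3. With 1 replicate number left out, the ratio of POU5F1 to NANOG differed by 1.84 to 1.95 (CE against SNE), 1.38 to 1.52 (CE against ME), -0.45 to -0.43 (SNE against ME), 0.67 to 0.67 (day 3) and 1.02 to 1.04 (day 5), where 1 library a group leaves too few permutations to pass the threshold. In polyA RNA, voom with copies gave NANOG -1.01, past the fold threshold.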
